A study of Homo sapiens with 6 samples.

Results

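The BCL2 family decides at the mitochondrial outer membrane whether a cell starts apoptosis, and 10 of its genes were followed here in breast cancer cells given an ABI2 plasmid. They were chosen by name: the anti-apoptotic genes BCL2, BCL2L1 and MCL1, the effector genes BAX, BAK1 and BOK, and the BH3-only genes BID, BAD, BBC3 and BCL2L11. The table held 20260 complete gene rows, and each of the 10 names matched 1 of them. All 10 passed the filter on low counts, which 13325 genes passed in all. MDA-MB-231 is an established human triple-negative breast cancer line. One group of 3 libraries came from MDA-MB-231 cells transfected with a plasmid carrying ABI2, an adaptor of the actin-assembling WAVE complex, and the other 3 libraries came from the same line transfected with empty vector as the control. The cells had been seeded 48 h before transfection. No source used here gives the promoter of the plasmid, the transfection reagent or the time from transfection to harvest. The labels do not say whether replicates are different cultures. Each p-value therefore reflects the spread among these 6 samples alone, part or all of which may be technical.

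The family shares short BCL2 homology (BH) motifs. Anti-apoptotic members hold a groove on their surface that binds the BH3 helix of the other members. Effectors, once active, oligomerise in the outer membrane and let cytochrome c out, while BH3-only proteins respond to stress by occupying the anti-apoptotic grooves or by activating the effectors directly. Many breast cancers are known to rely on MCL1 or BCL-XL, the long product of BCL2L1, for survival.

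The BH3 core is the element through which these proteins bind each other, so its coding stretch is shown for each member. The sequences were read from the GENCODE release 29 transcripts on GRCh38, in the coding direction from 5′ to 3′. Capitals mark the codons of the leucine and the aspartate that the motif is known for. Each run covers 30 bases.

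BCL2: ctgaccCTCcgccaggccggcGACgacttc
BCL2L1: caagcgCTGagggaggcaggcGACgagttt
MCL1: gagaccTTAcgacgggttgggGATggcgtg
BAX: gagtgtCTCaagcgcatcgggGACgaactg
BAK1: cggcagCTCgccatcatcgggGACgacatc
BOK: gcggtgCTGctgcgcctgggcGATgagctg
BID: aggcacCTCgcccaggtcgggGACagcatg
BAD: cgcgagCTCcggaggatgagtGACgagttt
BBC3: gcccagCTGcggcggatggcgGACgacctc
BCL2L11: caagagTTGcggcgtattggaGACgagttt

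The motif lies at different depths of the proteins, with the leucine at residue 63 in BAX, 97 in BCL2 and 213 in MCL1. BAD and BCL2L11 shared 21 of the 30 bases, as did the effector BAK1 and the BH3-only gene BID. The least alike pair was BID and BCL2L11, both BH3-only, with 10 identical bases. The GC content of the stretch was lowest in BCL2L11, at 50.0%, and highest in BBC3, at 76.67%. BBC3 is shown from its 193-residue form.

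ABI2 itself was higher in every library that received its plasmid. ABI2 averaged 222 ± 2.27 CPM (counts per 1e6 scaled counts) in ABI2 libraries and 82.5 ± 1.20 CPM in control libraries (SD, n = 3 each), a log2 fold change of 1.43 ± 0.04 (SE; edgeR, adjusted p = 1.23e-05). The size of this rise depended on the scale, with 2.78 in a fit corrected for transcript GC content and 2.91 in limma on log2(TPM + 1), where TPM is per transcript length. Library totals were 39.24 to 40.24 in ABI2 libraries and 38.45 to 40.31 in control libraries, in units of 1e6 counts. Mitochondrially encoded genes took 4.666% to 5.006% of the counts in ABI2 libraries and 8.482% to 9.209% in control libraries. The count-weighted GC content of the transcripts was 53.701% to 54.148% in ABI2 libraries and 50.806% to 51.331% in control libraries. All 8 markers of the mesenchymal line were expressed, of which 4 rose and 3 fell. They summed to 6100 to 6300 CPM in ABI2 libraries and 5275 to 5581 CPM in control libraries, mostly from VIM, while ANXA1 averaged 162 CPM in ABI2 libraries and 571 CPM in control libraries and ZEB1 2.65 CPM in ABI2 libraries and 12.9 CPM in control libraries. Of 10 luminal markers, PGR, CDH1, TFF1 and ELF5 were at 0 in all libraries, and 2 of the 5 tested rose, GATA3 and KRT19. The list summed to 58.0 to 60.1 CPM in ABI2 libraries and 36.7 to 40.8 CPM in control libraries, mostly from KRT19. Neither rise was called after GC correction, with GATA3 at 0.40 and KRT19 at 0.10 (edgeR adjusted p = 0.0529 and 0.228). EPCAM was then called as a rise of 0.62 (edgeR adjusted p = 0.0114). The part of mitochondrial share, GC content or marker levels in the results that follow was not tested.

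Compared with empty vector, 6 of the 10 members rose in ABI2 libraries, none fell and 4 did not pass the test. The 6 were the anti-apoptotic gene BCL2L1, all 3 effectors, and the BH3-only genes BID and BAD. Across the transcriptome 73.1% of tested genes were called at an adjusted p below 0.05 (edgeR quasi-likelihood test). Of all tested genes, 35.1% were called as higher and 38.0% as lower. On the scaled counts, the groups did not overlap for 6 members, all higher in ABI2 libraries, and overlapped for 4. Among all genes tested 77.9% did not overlap, 37.8% being higher and 40.1% lower. The median log2 fold change was 0.71 over the 10 members and -0.01 over all genes tested. In bulk RNA, fewer cells of a type and less RNA per cell cannot be told apart.

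**Figure D1:**
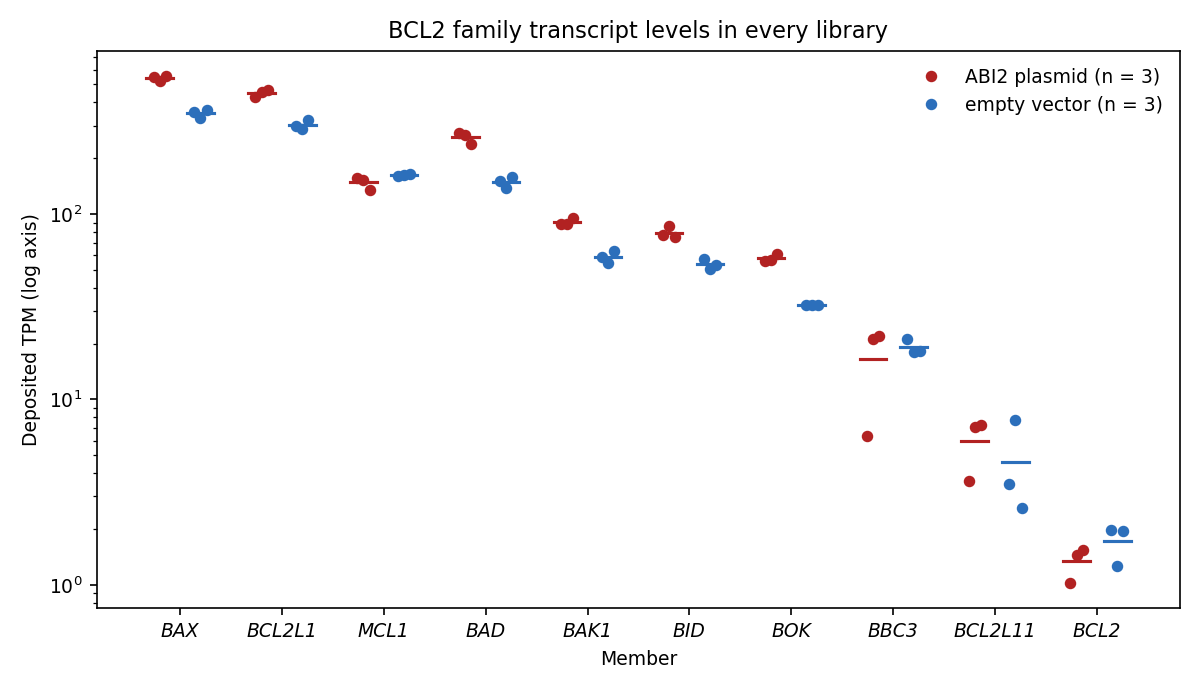
Levels of the 10 members in TPM (transcripts per 1e6 transcripts, log axis), ordered by their level in control libraries, with one point per library, a bar at the group mean, and ABI2 libraries left of control libraries. BAX and BCL2L1 were the highest members in all 6 libraries and BCL2 the lowest, and the libraries of BBC3 and BCL2L11 were the most scattered.

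The 3 effectors all rose. BAX (ENSG00000087088, chromosome 19, 48954877 to 48961798, plus strand, GRCh38) encodes a cytosolic protein that moves to mitochondria and forms pores there. Its levels were 308, 302 and 314 CPM in the ABI2 libraries, against 180, 173 and 187 CPM in the control libraries. Every ABI2 library was above every control library, and both groups were tight. The difference was 1.71-fold, a log2 fold change of 0.77 ± 0.05 (SE; edgeR adjusted p = 1.82e-05).

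BAK1 (ENSG00000030110, chromosome 6, 33572547 to 33580293, minus strand) encodes the effector that resides in the outer membrane. It had 119.4, 119.1 and 129 CPM in the ABI2 libraries, against 70.8, 68.0 and 77.4 CPM in the control libraries. The groups did not overlap, and replicate 3 was the highest library within each. The log2 fold change was 0.77 ± 0.07 (SE; edgeR adjusted p = 5.86e-05).

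BOK (ENSG00000176720, chromosome 2, 241558721 to 241574138, plus strand) encodes an effector known to permeabilise membranes without BAX and BAK and to be removed by endoplasmic-reticulum-associated degradation. It had 92.8, 95.3 and 102 CPM in the ABI2 libraries, against 48.1, 50.5 and 49.1 CPM in the control libraries. BOK had the largest log2 fold change of the 6 members that rose, 0.97 ± 0.06 (SE; edgeR adjusted p = 1.79e-05), or 1.96-fold. No BOK library of one group came near the other group.

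The 3 anti-apoptotic genes did not move together. BCL2L1 (ENSG00000171552, chromosome 20, 31664452 to 31723989, minus strand) encodes BCL-XL and, by alternative splicing, the shorter pro-apoptotic BCL-XS, which gene-level counts do not separate. It had 626, 666 and 675 CPM in the ABI2 libraries, against 389, 392 and 424 CPM in the control libraries. The lowest ABI2 library lay well above the highest control library. BCL2L1 was 1.63-fold higher, a log2 fold change of 0.71 ± 0.05 (SE; edgeR adjusted p = 3.2e-05).

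MCL1 (ENSG00000143384, chromosome 1, 150574551 to 150579738, minus strand) encodes a short-lived protein that holds BAK and BIM in check. Its levels were 382, 376 and 331 CPM in the ABI2 libraries, against 352, 371 and 364 CPM in the control libraries. The groups overlapped, with 2 ABI2 libraries above all control libraries and 1 below them. The log2 fold change was 0.00 ± 0.06 (SE; edgeR adjusted p = 0.975), and its sign turned, still without a call, under other scalings and when single libraries were left out.

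BCL2 (ENSG00000171791, chromosome 18, 63123346 to 63320128, minus strand), the founding member of the family, was barely expressed. It had 182, 210 and 195 counts in the ABI2 libraries, against 277, 222 and 265 counts in the control libraries. Scaled, that was 4.68, 5.51 and 5.13 CPM in ABI2 libraries, against 6.59, 5.45 and 6.63 CPM in control libraries. The groups overlapped because control replicate 2 lay just below ABI2 replicate 2. BCL2 had a log2 fold change of -0.28 ± 0.13 (SE; edgeR adjusted p = 0.0874). Scaled by library size without TMM, where the median of all genes was -0.10, it passed as a fall of -0.38 (edgeR adjusted p = 0.0377).

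Among the BH3-only genes, BID and BAD rose, and BBC3 and BCL2L11 varied too much between libraries of one group to be called. BID (ENSG00000015475, chromosome 22, 17734138 to 17774665, minus strand) encodes the protein that caspase-8 cuts to link death receptors to mitochondria. It had 92.6, 105 and 95.1 CPM in the ABI2 libraries, against 61.9, 55.6 and 61.0 CPM in the control libraries. The groups were well apart, with a log2 fold change of 0.71 ± 0.07 (SE; edgeR adjusted p = 0.000115).

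BAD (ENSG00000002330, chromosome 11, 64269830 to 64284669, minus strand) encodes a sensitiser that AKT is known to phosphorylate, after which 14-3-3 proteins hold it in the cytosol. Phosphorylation is not visible in RNA levels. BAD had 142.3, 142.4 and 129.9 CPM in the ABI2 libraries, against 74.4, 71.1 and 79.5 CPM in the control libraries. ABI2 replicate 3 was the lowest of its group and still far above every control library. The log2 fold change was 0.88 ± 0.07 (SE; edgeR adjusted p = 3.06e-05). BAD overlaps GPR137 on the opposite strand, and without a stated strand setting reads from the overlap cannot be told apart. GPR137 had 40.4, 41.1 and 43.6 CPM in ABI2 libraries, against 27.5, 25.3 and 29.3 CPM in control libraries. The same limit on opposite-strand reads holds for BCL2L1, BCL2, BAK1, BOK, BBC3 and BCL2L11. Each overlaps an annotated opposite-strand gene for which no counts were given, and the gene opposite BCL2L11 spans it whole.

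BBC3 (ENSG00000105327, chromosome 19, 47220824 to 47232766, minus strand) encodes PUMA, a p53 target that binds all the main anti-apoptotic proteins. It had 267, 895 and 947 counts in the ABI2 libraries, against 883, 764 and 753 counts in the control libraries. In CPM this was 6.86, 23.5 and 24.9 in ABI2 libraries, against 21.0, 18.8 and 18.9 in control libraries. ABI2 replicate 1 stood far below the other 5 libraries, which lay between 18.8 and 24.9 CPM. With it, the log2 fold change was -0.08 ± 0.45 (SE; edgeR adjusted p = 0.877). Without that library the value was 0.31 and passed as a rise (edgeR adjusted p = 0.0248), which brought the members called to 7.

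BCL2L11 (ENSG00000153094, chromosome 2, 111119378 to 111168447, plus strand) encodes BIM, an activator of BAX and BAK that FOXO factors are known to induce and ERK to destabilise. It had 268, 636 and 721 counts in the ABI2 libraries, against 283, 702 and 161 counts in the control libraries. Its levels were 6.89, 16.7 and 19.0 CPM in ABI2 libraries, against 6.73, 17.2 and 4.03 CPM in control libraries. High and low libraries occurred in both groups, with ABI2 replicates 2 and 3 and control replicate 2 high. The log2 fold change was 0.60 ± 0.62 (SE; edgeR adjusted p = 0.41). Leaving out control replicate 2 gave 1.41 (edgeR adjusted p = 0.0564), and leaving out control replicate 3 gave 0.24.

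**Figure D2:**
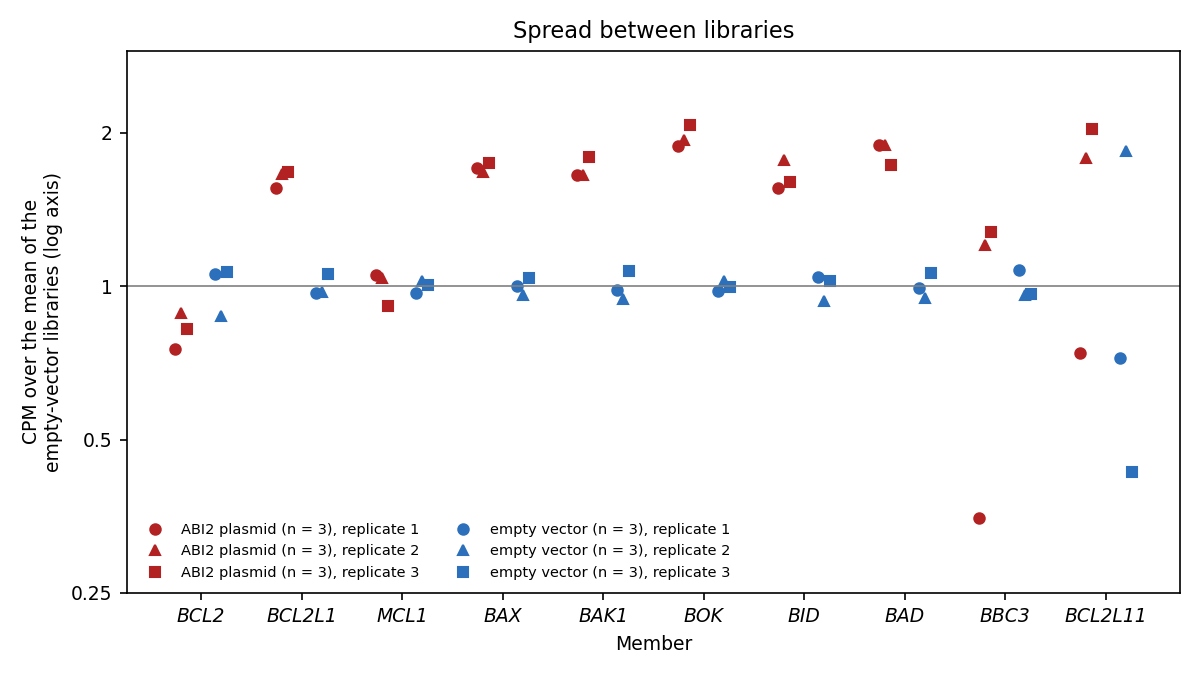
CPM of each member in each library divided by that member's mean over the control libraries (log axis), with ABI2 libraries in red left of control libraries in blue and the replicate number given by the marker shape. ABI2 replicate 1 is the low library of BBC3, at 6.86 CPM, while BCL2L11 ranges from 6.89 to 19.0 CPM in ABI2 libraries and from 4.03 to 17.2 CPM in control libraries.

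These 2 genes scattered more between libraries of one group than most genes did. Among 10251 genes with a mean of at least 5 CPM, the ratio of the highest to the lowest library had a median of 1.16 within the ABI2 group and 1.12 within the control group. BBC3 reached 3.63 in the ABI2 group, above 99.3% of these genes, and 1.12 in the control group. BCL2L11 reached 2.76 in the ABI2 group, above 98.6% of genes, and 4.27 in the control group, above 99.7%. Set against genes with a mean CPM within 2 times their own, a comparison added after the data were seen, BBC3 in the ABI2 group was above 98.9% of 3993 genes, and BCL2L11 was above 97.9% of 3334 genes in the ABI2 group and 99.2% in the control group. The other 8 members stayed between 1.04 and 1.18 in the ABI2 group and between 1.05 and 1.22 in the control group. The low libraries of BBC3 and BCL2L11 had ordinary totals, and no label sets them apart.

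**Figure D3:**
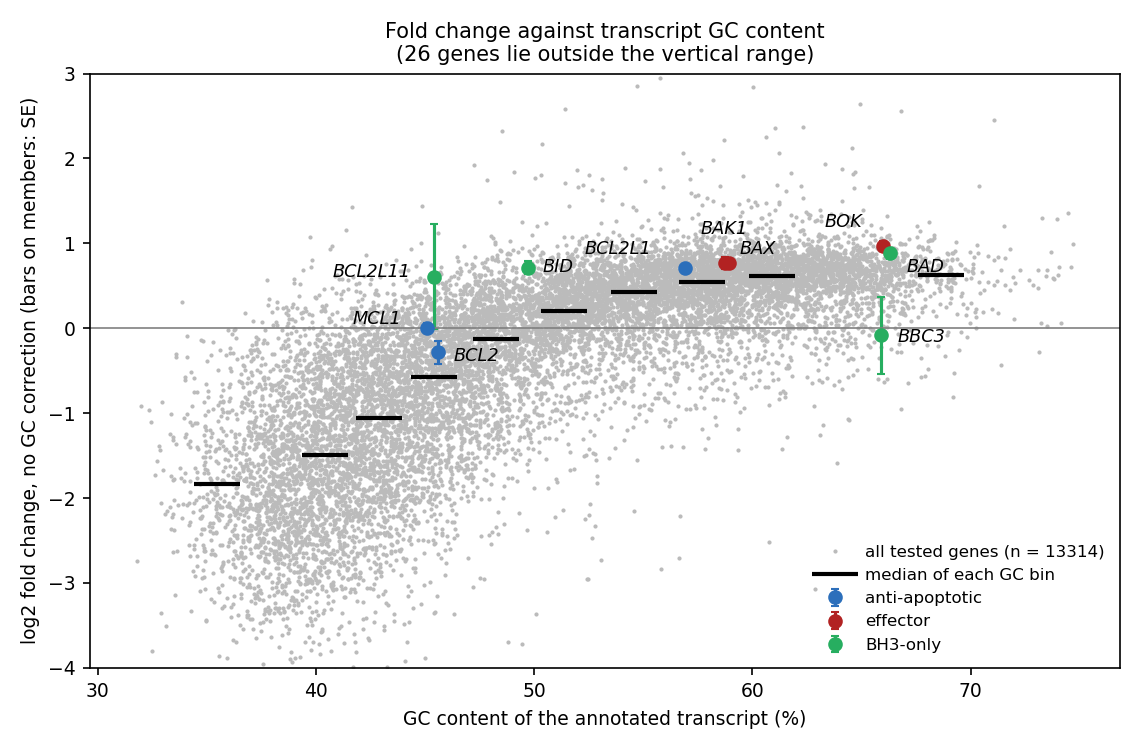
Log2 fold change of ABI2 plasmid over empty vector, without GC correction, against the GC content of the annotated transcript in percent for 13314 tested genes (grey), with the median of each of 10 equal-sized GC bins as a black bar and the 10 members coloured by role with SE bars. All members except BBC3 lie above the bar of their own bin.

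The members that rose were mostly GC-rich, and GC content went with the fold change across the transcriptome. BCL2L1, BAX and BAK1, with transcript GC contents of 56.9%, 58.9% and 58.8%, shared a bin when the tested genes were cut into 10 equal-sized bins by GC content. In that bin 70.02% of genes rose and 2.78% fell, and the log2 fold change had a median of 0.55 and an upper quartile of 0.73. BOK, BAD and BBC3, between 65.9% and 66.3%, belonged to the most GC-rich bin, where 73.87% rose, 0.9% fell and the median was 0.63. The rises of BCL2L1, BAX and BAK1 stood 0.16, 0.22 and 0.22 above the median of their bin on the log2 scale, and those of BOK and BAD 0.34 and 0.25.

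The GC-poor members lay in a range where most genes fell. BCL2, MCL1 and BCL2L11, at 45.6%, 45.1% and 45.4% GC, shared a bin whose median was -0.57, with 62.01% of genes falling and 8.03% rising. MCL1, with its log2 fold change of 0.00, was 0.58 above that median. BID, at 49.7% GC, was in a bin with a median of -0.13, of which 19.61% rose, and it stood 0.84 above the median. BBC3 was the only member below the median of its bin, at -0.71 relative to it with the low ABI2 replicate 1 included.

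A fit in which each library's dependence on transcript GC content was removed called 7 members as higher and none as lower. Of all genes, that fit called 51.2%, with 28.7% higher and 22.5% lower. The median was 0.32 over the members and 0.04 over all genes. BID kept its size, with 0.73 (edgeR adjusted p = 0.000327). The GC-rich members that had risen kept their call with smaller values: 0.22 for BCL2L1, 0.23 for BAX, 0.23 for BAK1, 0.37 for BOK and 0.29 for BAD, with edgeR adjusted p between 0.00152 and 0.00965. MCL1 was called as a rise, with 0.74 (edgeR adjusted p = 5.49e-05).

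Corrected for GC content, the MCL1 libraries were at 454, 485 and 464 CPM in the ABI2 group, against 273, 279 and 291 CPM in the control group. This was a gap that the uncorrected values did not have. BCL2 changed sign, to 0.36 (edgeR adjusted p = 0.0907), and without ABI2 replicate 1 it passed at 0.47 (edgeR adjusted p = 0.0419). BBC3 was at -0.70 (edgeR adjusted p = 0.249) and passed as a fall of -0.31 without ABI2 replicate 1 (edgeR adjusted p = 0.0337). BBC3 thus took opposite calls in the fits with and without GC correction once that library was left out. BCL2L11 was at 1.33 (edgeR adjusted p = 0.144) and passed at 2.09 without control replicate 2 (edgeR adjusted p = 0.0436).

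**Figure D4:**
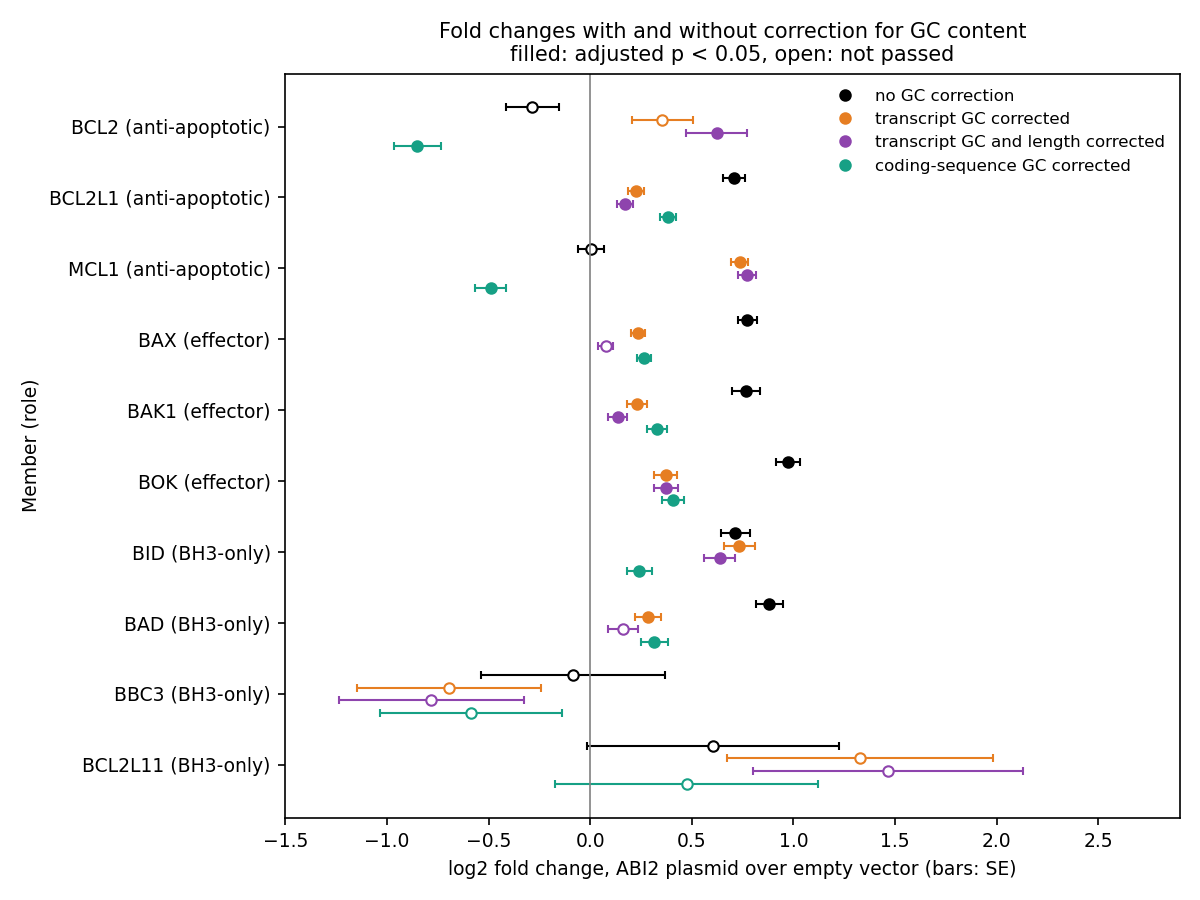
Log2 fold change of ABI2 plasmid over empty vector with SE for each member in 4 edgeR fits, one without GC correction and 3 with different corrections; filled points passed an adjusted p below 0.05. BCL2L1, BAK1, BOK and BID are filled on the right of 0 in all 4 fits, BCL2 and MCL1 have filled points on both sides of 0, and BBC3 and BCL2L11 are open throughout.

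For some members the answer depended on which section of the transcript the GC content was taken from. MCL1 has a coding sequence of 61.0% GC over 1050 bases and a 3′ untranslated region of 38.7% over 2822 bases. BCL2 is split in the same way, with 66.0% in its coding sequence and 40.6% in a 3′ untranslated region of 5282 bases, and so are BID, with 60.4% and 41.2%, and, less widely, BCL2L11, with 53.7% and 42.9%. In the other 6 members both sections were GC-rich, from 56.9% to 74.2% in the coding sequence and from 56.4% to 62.9% in the 3′ untranslated region.

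Corrected by coding-sequence GC content, a choice made after the data were seen, MCL1 and BCL2 were called as falls, at -0.49 and -0.85 (edgeR adjusted p = 0.00149 and 0.000816). Corrected by the GC content of the 3′ untranslated region, also chosen after the data were seen, MCL1 was called as a rise of 0.79 (edgeR adjusted p = 2.59e-05) and BCL2 was not called, at 0.30 (edgeR adjusted p = 0.118). BID was called as a rise in both, at 0.24 and 1.22 (edgeR adjusted p = 0.0156 and 4.36e-05). The 5 GC-rich members that rose without correction stayed called as rises in both, between 0.19 and 0.41. With transcript length corrected along with transcript GC content, BAX (0.08, edgeR adjusted p = 0.133) and BAD (0.16, edgeR adjusted p = 0.112) lost their call and BCL2 gained one as a rise (0.62, edgeR adjusted p = 0.0126).

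Per unit of transcript length, the family was led by an effector and an anti-apoptotic gene of similar level. In TPM, which divides by length, BAX averaged 541 ± 18.8 in ABI2 libraries and 349 ± 17.6 in control libraries (SD, n = 3 each), and BCL2L1 451 ± 20.3 in ABI2 libraries and 302 ± 16.6 in control libraries. Below them came BAD, with 259 ± 18.0 TPM in ABI2 libraries and 149.6 ± 10.8 TPM in control libraries, and MCL1, with 148 ± 11.4 TPM in ABI2 libraries and 162 ± 1.96 TPM in control libraries. BAD was above MCL1 in the ABI2 libraries and below it in the control libraries, and within each group the values of the pair did not overlap. This switch held on the deposited TPM only. With TPM corrected for transcript GC content, a step added after the data were seen, BAD was above MCL1 in the control libraries as well. In the ABI2 libraries the corrected values of the pair overlapped.

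BAK1, BID and BOK followed in both groups, at 91.0 ± 4.16, 79.3 ± 6.06 and 57.7 ± 2.76 TPM in ABI2 libraries and 58.9 ± 4.47, 53.8 ± 3.28 and 32.3 ± 0.169 TPM in control libraries. BAK1 and BID overlapped in the control group. At the bottom were BBC3 with 16.5 ± 8.85 TPM in ABI2 libraries and 19.1 ± 1.82 TPM in control libraries, BCL2L11 with 6.01 ± 2.07 TPM in ABI2 libraries and 4.61 ± 2.75 TPM in control libraries, and BCL2 with 1.34 ± 0.275 TPM in ABI2 libraries and 1.73 ± 0.408 TPM in control libraries. BBC3 and BCL2L11 overlapped in the ABI2 group. MCL1 was the only member whose groups overlapped in CPM and not in TPM: no ABI2 library (135 to 156 TPM) reached the control libraries (160 to 164 TPM), though limma on log2(TPM + 1) gave -0.14 with an adjusted p of 0.111.

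Ratios between members within a library need no scaling between libraries, and they are given without a test. BAX over BCL2L1 in TPM was 1.28, 1.14 and 1.18 in the ABI2 libraries, against 1.18, 1.15 and 1.14 in the control libraries. The groups overlapped, so for the most abundant effector and anti-apoptotic transcripts no shift in proportion exceeded the spread between libraries. BAX over MCL1 was 3.52, 3.40 and 4.11 in the ABI2 libraries, against 2.21, 2.03 and 2.22 in the control libraries, without overlap. BCL2L1 over MCL1 was 2.75, 2.97 and 3.47 in the ABI2 libraries, against 1.87, 1.76 and 1.95 in the control libraries, also without overlap. Both ratios with MCL1 set a GC-rich transcript against a GC-poor one, and their direction turned once TPM were corrected for transcript GC content, a step added after the data were seen. Corrected, BAX over MCL1 was 2.51, 2.18 and 2.38 in the ABI2 libraries, against 3.44, 3.35 and 3.25 in the control libraries. Corrected BCL2L1 over MCL1 was 2.00, 1.95 and 2.05 in the ABI2 libraries, against 2.86, 2.84 and 2.82 in the control libraries. These data therefore give no direction for either ratio that holds on both scales.

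Summed by role, every class was higher in the ABI2 libraries, both as deposited and after GC correction. The anti-apoptotic sum was 600.5 ± 12.6 TPM in ABI2 libraries and 467 ± 17.8 TPM in control libraries (SD, n = 3 each). The effector sum was 690.2 ± 23.5 TPM in ABI2 libraries and 441 ± 21.9 TPM in control libraries. The BH3-only sum was 361 ± 19.3 TPM in ABI2 libraries and 227 ± 11.0 TPM in control libraries. The effector sum divided by the anti-apoptotic sum was 1.18, 1.09 and 1.18 in the ABI2 libraries, against 0.962, 0.924 and 0.946 in the control libraries. The groups did not overlap, but the direction turned with GC correction, to 1.05, 0.941 and 0.996 in the ABI2 libraries, against 1.12, 1.10 and 1.07 in the control libraries. BH3-only over anti-apoptotic was 0.613, 0.626 and 0.567 in the ABI2 libraries, against 0.505, 0.476 and 0.480 in the control libraries, and the groups overlapped after GC correction, at 0.504 to 0.569 in ABI2 libraries and 0.526 to 0.569 in control libraries.

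The transcript length that the deposited values imply for each gene, from its count, its FPKM and the library total, is a weighted mean over the isoforms present. The groups overlapped for 7 members. MCL1 had an implied length of 4635 ± 5.7 bases in ABI2 libraries and 4576 ± 8.2 bases in control libraries (SD, n = 3 each), BAK1 2546 ± 2.7 bases in ABI2 libraries and 2511 ± 3.1 bases in control libraries, and BOK 3169 ± 3.1 bases in ABI2 libraries and 3124 ± 3.8 bases in control libraries. For these 3 the groups did not overlap, with differences of 1.29%, 1.41% and 1.44% (exact two-sided permutation p = 0.1 each, the smallest 3 against 3 can give). Over 13179 tested genes the same measure did not overlap for 42.4%, with 37.2% longer and 5.27% shorter in ABI2 libraries, and its median difference was 1.46%. The 3 members thus sat at the level of the whole table, and their count says nothing particular to them.

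BCL2L11 and BCL2 had the widest implied lengths. BCL2L11 was at 3608, 4431 and 4929 bases in the ABI2 libraries, against 4016, 4468 and 3201 bases in the control libraries (exact permutation p = 0.5). Within each group, the libraries with more BCL2L11 counts had the longer implied lengths. BCL2 ranged from 6263 to 8609 bases in ABI2 libraries and from 6916 to 8663 bases in control libraries (exact permutation p = 0.9). BCL2L1, whose isoforms have opposed roles, overlapped between the groups, with 2750 ± 26.9 bases in ABI2 libraries and 2727 ± 20.4 bases in control libraries.

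The rest of the BCL2 family moved in both directions. Of 14 further family genes, BCL2A1 and BCL2L10 were at 0 in all libraries, BCL2L14, BCL2L15 and HRK were too low to test, and of the 9 tested 4 rose, 3 fell and 2 did not pass. Their median log2 fold change was 0.20, and after GC correction 6 rose and 1 fell. PMAIP1, which encodes NOXA, the BH3-only partner of MCL1, averaged 119.6 ± 9.69 CPM in ABI2 libraries and 78.6 ± 3.54 CPM in control libraries (SD, n = 3 each), with a rise of 0.61 on the log2 scale (edgeR adjusted p = 0.000253), or 1.25 after GC correction. BCL2L12 averaged 92.1 ± 6.85 CPM in ABI2 libraries and 49.1 ± 0.908 CPM in control libraries. BMF, a BH3-only gene, was low and fell, to 4.40 ± 0.387 CPM in ABI2 libraries, against 6.14 ± 0.373 CPM in control libraries, and it fell further after GC correction, with log2 fold changes of -0.48 and -0.87. BNIP3L, a mitophagy receptor, averaged 60.3 ± 4.48 CPM in ABI2 libraries and 156 ± 12.6 CPM in control libraries, a fall of -1.37. Correction by transcript GC content turned it into a called rise of 0.29 (edgeR adjusted p = 0.00226). With coding-sequence GC content BNIP3L stayed a called fall, at -1.18 (edgeR adjusted p = 3.75e-05). It also did with GC content of the 3′ untranslated region, at -0.22 (edgeR adjusted p = 0.00822).

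Genes of mitochondrial membrane dynamics, of the factors released from mitochondria and of the apoptosome also moved both ways. Of the 12 tested 3 rose and 6 fell, at a median of -0.35, and after GC correction 5 rose and 4 fell. The falls with the smallest p were the fusion GTPases MFN1 and OPA1, whose products join mitochondrial outer and inner membranes. MFN1 averaged 5.21 ± 0.552 CPM in ABI2 libraries and 39.95 ± 2.88 CPM in control libraries, and OPA1 7.81 ± 0.722 CPM in ABI2 libraries and 46.3 ± 8.93 CPM in control libraries. After GC correction both were still called as falls, at -1.37 and -0.86. MFN2, the other outer-membrane fusion GTPase, averaged 206 ± 7.59 CPM in ABI2 libraries and 147 ± 4.59 CPM in control libraries. Its rise of 0.48 was 0.16 after GC correction (edgeR adjusted p = 0.0171), and it lost its call when the replicate block was added to that correction (0.16, edgeR adjusted p = 0.0513) or with GC content of the 3′ untranslated region (0.05, edgeR adjusted p = 0.332). HTRA2, a mitochondrial protease that is released into the cytosol, averaged 85.7 ± 4.09 CPM in ABI2 libraries and 57.1 ± 7.87 CPM in control libraries. Its rise was not called after GC correction (0.02, edgeR adjusted p = 0.891). It was called with GC content of the 3′ untranslated region (0.42, edgeR adjusted p = 0.00882).

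Of 25 tested regulators that act on BCL2 family proteins, 10 rose and 9 fell, at a median of -0.07, and after GC correction 12 rose and 6 fell. USP9X, a deubiquitinase that stabilises MCL1, had 7.47 ± 0.862 CPM in ABI2 libraries and 70.6 ± 15.3 CPM in control libraries (SD, n = 3 each), and its fall of -3.24 (edgeR adjusted p = 1.7e-05) was -1.73 after GC correction. GSK3B, a kinase that marks MCL1 for degradation, fell to 35.0 ± 2.59 CPM in ABI2 libraries, against 73.2 ± 2.03 CPM in control libraries. Its log2 fold change of -1.07 was -0.33 after GC correction and -0.14 after coding-sequence GC correction. With GC content of the 3′ untranslated region it was larger, at -1.49. AKT1, a kinase that phosphorylates BAD, averaged 245 ± 12.2 CPM in ABI2 libraries and 147 ± 7.36 CPM in control libraries. SFN, a 14-3-3 protein, averaged 195 ± 5.30 CPM in ABI2 libraries and 114 ± 3.39 CPM in control libraries. The rises of AKT1 and SFN were 0.20 and 0.17 after GC correction, against 0.73 and 0.77 without it. With transcript length corrected as well, SFN lost its call (0.04, edgeR adjusted p = 0.551) and AKT1 kept it (0.31, edgeR adjusted p = 0.00113).

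Among 16 transcription factors known to act on these genes, 9 rose and 5 fell, at a median of 0.32, and after GC correction 7 rose and 2 fell. FOXO3, an inducer of BCL2L11 and BBC3, averaged 48.4 ± 2.24 CPM in ABI2 libraries and 87.3 ± 0.312 CPM in control libraries, with log2 fold changes of -0.85 without and -0.75 with GC correction (edgeR adjusted p = 2.28e-05 and 5.49e-05). FOXO1 averaged 10.7 ± 0.675 CPM in ABI2 libraries and 18.6 ± 0.455 CPM in control libraries, and its fall was not called after GC correction (-0.30, edgeR adjusted p = 0.0518). It was called as a fall with coding-sequence GC content (-1.18, edgeR adjusted p = 5.89e-05). With GC content of the 3′ untranslated region FOXO1 was not called (0.18, edgeR adjusted p = 0.209). E2F1 averaged 171 ± 8.14 CPM in ABI2 libraries and 93.5 ± 1.93 CPM in control libraries, and JUN 370.1 ± 18.4 CPM in ABI2 libraries and 241 ± 4.72 CPM in control libraries. Their rises of 0.87 and 0.62 were 0.28 and 0.15 after GC correction. JUN was not called after coding-sequence GC correction (0.06, edgeR adjusted p = 0.205). With GC content of the 3′ untranslated region, JUN was called as a rise of 0.90 (edgeR adjusted p = 5.25e-05).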

How the data were processed

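RNA of 6 MDA-MB-231 samples was sequenced from mRNA-kit libraries. The authors deposited 1 table with a whole-number read count, a TPM and an FPKM value per gene and library, per the file headers; the counts are not normalized. The submitters' processing notes name HISAT2 2.1.0, StringTie 1.3.3b, Trimmomatic, FastQC 0.11.2 and GRCh38. The counting program, its strand setting and the annotation were not given in the sources used here. Of 20261 rows, 1 was incomplete and left out. Totals were 38.45 to 40.31 in units of 1e6 counts, and BCL2 was counted least exactly, at 182 to 277 counts.

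The 2 groups were compared by edgeR 4.0.16 under R 4.3.3 (TMM scaling, filterByExpr with a minimum count of 10, robust quasi-likelihood F test, two-sided, Benjamini-Hochberg over all 13325 genes, threshold 0.05). CPM are per 1e6 counts of each library after TMM scaling. The GC-corrected fit used offsets from a natural spline (5 df) of GENCODE 29 transcript GC content per library, and takes out biological change along with GC content too. Alternatives used DESeq2 1.42.0, limma 3.58.1 and limma on log2(TPM + 1), and left out each library. Libraries of one group differed by 21.06 to 48.22 chi-square per degree of freedom, so none was a copy. GC-corrected TPM are the deposited TPM times the ratio of a gene's GC-corrected to uncorrected CPM. ANXA1, AXL, CAV1, EPCAM, GATA3, KRT19, S100A4, SPARC, VIM and ZEB1 were named after their values were seen. Implied length is the count divided by FPKM and library total, scaled to bases. The procedure was tested on simulated data over 6 random seeds; the required recovery was lowered, and judged on the mean of the seeds, after a single seed missed a stricter limit. Sequences were translated with Biopython 1.88 to place the BH3 core.

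The members and gene lists were chosen with earlier results of these data known. Named beyond the members were ABI2 and, per list, up to 2 rises and 2 falls with the smallest p; GPR137, BCL2A1, BCL2L10, BCL2L14, BCL2L15 and HRK were named after their values were seen. The result of 1 marker list is not reported here.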

Additional observations from a re-analysis of the deposited data

How the results depend on the processing

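BCL2L1, BAK1, BOK and BID were called as rises under every alternative run, and BAX and BAD under all but the GC- and length-corrected fit. In that fit BAK1 passed only narrowly (0.14, edgeR adjusted p = 0.0496). The number of members called as falls was 1 by library size without TMM and 2 with coding-sequence GC correction, against 0. Genes called lower numbered 5057 without correction, 2998 with GC correction, 2938 with GC and length correction, 2737 with GC correction and the replicate block and 3124 with coding-sequence GC correction. Over the 4 gene lists together, falls numbered 23 without correction and 13 in each of the GC-corrected, GC- and length-corrected, and GC-corrected replicate-block fits. BCL2 turned to 0.36 with GC correction, 0.62 with GC and length correction, 0.36 with GC correction and the replicate block (0.355) and 0.30 with 3′ untranslated GC correction. MCL1 turned to -0.094 without TMM, -0.050 with upper-quartile scaling, -0.14 on log2(TPM + 1), -0.0002 with the replicate block and -0.49 with coding-sequence GC correction. BNIP3L turned to 0.29 (GC), 0.23 (GC and length) and 0.29 (GC with the block), HTRA2 to -0.044 (GC and length) and FOXO1 to 0.18 (3′ untranslated GC). The cause was not tested.

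Leaving out 1 library at a time gave 4369 to 4562 genes higher, 4713 to 5012 lower, 6 to 7 members rising and 0 falling, 22 to 25 listed genes rising and 20 to 23 falling, and ABI2 at 1.43 to 1.44. MCL1 ranged from -0.032 to 0.069 and BBC3 from -0.36 to 0.31. In the GC-corrected fit the ranges were 3142 to 3607 higher, 2469 to 2873 lower, 7 to 8 members rising, 0 to 1 falling, 20 to 28 listed genes rising, 12 to 14 falling, ABI2 2.71 to 2.86 and HTRA2 -0.044 to 0.13. Implied lengths did not overlap for 3 to 5 members, with 5 without ABI2 replicate 3 and without control replicate 1. The effector to anti-apoptotic ratio ranged from 1.13 to 1.18 in ABI2 libraries and from 0.935 to 0.954 in control libraries, and with GC-corrected TPM its means turned to 0.997 in ABI2 libraries and 1.10 in control libraries. Same-numbered libraries correlated at 0.02 to 0.06 in their deviations from the group mean, and 4 of 6 samples correlated best with their own number. These values do not settle whether the numbers pair the libraries. The replicate block changed no member's call.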
